A study of Mus musculus with 26 samples.

Results

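Cell proliferation was followed in mouse mesenteric arteries through 9 genes: Mki67, Top2a, Ccnb1, Cdk1, Ccna2, Birc5, Mcm5, Mcm6 and Ccnd1. They were picked by symbol, and all 9 were found among the 21031 genes of the deposited normalized table. Poly(A) RNA had been sequenced from the mesenteric arteries, the small vessels that feed the gut, of male mice aged 8 weeks. The 26 libraries form 4 mutant-control pairs built around Panx1, which encodes the ATP-releasing membrane channel pannexin 1. The first pair sets 3 Panx1 KO libraries, titled a global knockout, against 3 WT libraries. The other pairs carry a changed tyrosine or serine of the channel protein. They set 3 libraries of genotype Y198F+/+ against 3 of Y198F-/-, 4 of S205A+/+ against 4 of S205A-/-, and 3 of Y308F+/+ against 3 of Y308F-/-. The minus/minus genotypes are the labelled controls, called Y198F, S205A and Y308F controls here, and the study describes its controls as littermate or WT without saying which group is which. The alleles were not restricted to a cell type by the labels, and no group was given a treatment.

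Dividing cells switch these genes on in order. Cyclin D genes respond to growth signals and drive exit from the resting state, the MCM genes encode subunits of the helicase that opens DNA for replication, and the late genes encode the cyclins, the kinase and the chromosome proteins that carry a cell into and through mitosis. In resting cells the late genes are held down by repressor complexes that bind short promoter elements, among them the cell cycle homology region and E2F sites. The smooth muscle and endothelium of a mature artery divide rarely, so late cell cycle transcripts in the vessel wall are usually scarce.

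Each library held 14895969 to 23617902 counts, with a median of 18791884. Panx1 had 61 to 96 counts in the WT libraries and 11 to 27 in the Panx1 KO libraries. All 8 smooth muscle markers and all 8 endothelial markers examined were detected in the series, with summed normalized counts of 392214 to 816427 and of 22071 to 185841 per library. One set of 9 libraries stood apart. Their library names carry a number beginning with 22, and they are called the 22 series here. It takes in every Y198F mutant, the S205A controls numbered 1, 2 and 3, and the S205A mutants numbered 2, 3 and 4. Their scores on the first principal component of all genes, which held 28.2% of the variance, ran from 40.4 to 86.3, against -49.7 to -14.6 in the other 17. No Y198F control belongs to the 22 series, so the Y198F genotype and the series cannot be told apart within that pair. The labels number the samples of each group but do not describe each as a separate mouse, so p-values measure the spread between libraries. In whole arteries, fewer dividing cells and less RNA per cell cannot be told apart.

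Promoter sequence was read for the members because the late ones are known to share repressor elements and rose and fell together between libraries of a group. RefSeq promoters of build GRCm38.p6 were matched for 7 of the 9 members; Ccna2 and Ccnd1 were not among them. The 150 bases that end just before the outermost RefSeq start of the gene are printed 5′ to 3′ on the gene's own strand for 4 late members and both MCM genes. Capitals mark 3 motifs: the CCAAT box (CCAAT, or ATTGG on the other strand), the core letters of the cell cycle homology region (TTTGAA or TTTAAA, or TTCAAA on the other strand) and a strict E2F site (TTTCGCGC or TTTGGCGC, or GCGCGAAA or GCGCCAAA on the other strand). Their positions are chr7:135716451-135716600 (minus) for Mki67, chr11:99024200-99024349 (minus) for Top2a, chr13:100786487-100786636 (minus) for Ccnb1, chr10:69352913-69353062 (minus) for Cdk1, chr8:75109318-75109467 (plus) for Mcm5 and chr1:128359706-128359855 (minus) for Mcm6.
Mki67: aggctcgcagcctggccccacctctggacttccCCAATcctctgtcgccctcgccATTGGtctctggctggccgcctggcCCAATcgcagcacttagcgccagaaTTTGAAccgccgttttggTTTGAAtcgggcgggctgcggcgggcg
Top2a: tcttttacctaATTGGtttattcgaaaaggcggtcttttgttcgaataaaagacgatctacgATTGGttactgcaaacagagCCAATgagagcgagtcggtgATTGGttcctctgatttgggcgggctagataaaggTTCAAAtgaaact
Ccnb1: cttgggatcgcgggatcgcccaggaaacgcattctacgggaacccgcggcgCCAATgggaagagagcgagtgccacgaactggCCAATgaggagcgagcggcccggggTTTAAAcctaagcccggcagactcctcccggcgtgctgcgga
Cdk1: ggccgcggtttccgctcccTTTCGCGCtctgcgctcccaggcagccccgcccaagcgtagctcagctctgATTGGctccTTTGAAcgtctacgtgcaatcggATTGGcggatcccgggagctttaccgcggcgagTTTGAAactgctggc
Mcm5: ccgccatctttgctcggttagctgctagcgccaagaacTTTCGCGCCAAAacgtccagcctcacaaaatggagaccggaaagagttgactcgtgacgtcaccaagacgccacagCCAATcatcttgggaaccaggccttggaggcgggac
Mcm6: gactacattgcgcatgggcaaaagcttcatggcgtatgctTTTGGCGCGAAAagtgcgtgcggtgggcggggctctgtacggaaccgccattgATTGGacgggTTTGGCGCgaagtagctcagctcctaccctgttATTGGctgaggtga
The 4 late promoters printed each held CCAAT boxes and at least 1 cell cycle homology core, and only that of Cdk1 among them also held an E2F match, 131 bases before the start. Birc5, the other late gene with a matched promoter, held none of the 3 motifs in its 150 bases and is not printed. Mcm5 and Mcm6 had no cell cycle homology core in these stretches and held 2 and 3 E2F matches, of which 1 pair in each gene overlaps on opposite strands. In Ccnb1 the core began 42 bases before the start and the nearest CCAAT box 67 bases before it. The whole RefSeq windows of 250 bases before the start were searched in the same way, on both strands, in all 32851 promoters of the table. There the CCAAT box was present in 33.8% of all promoters and in 6 of the 7 members, the homology core in 25.2% and in 6, and the E2F site in 0.654% and in 3. Such matches describe letters only. The MCM promoters also held CCAAT boxes, 1 in Mcm5 and 2 in Mcm6, and the whole windows of Mcm5 and Birc5 each held 1 homology core.

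**Figure D1:**
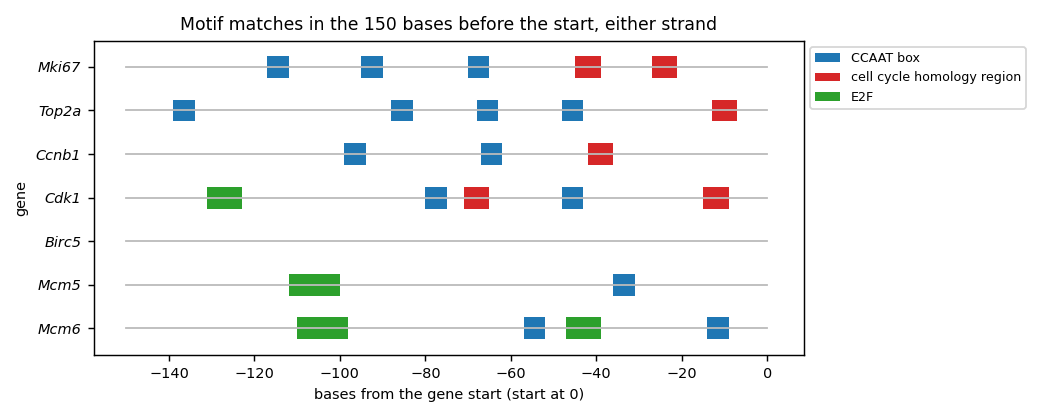
Matches of 3 motifs in the 150 bases before the gene start of 7 proliferation genes; the horizontal axis is distance from the start in bases, each grey line is 1 gene, and coloured blocks are matches on either strand. CCAAT boxes are in all but Birc5, cell cycle homology cores in Mki67, Top2a, Ccnb1 and Cdk1, and E2F matches in Cdk1, Mcm5 and Mcm6; the Birc5 stretch has no match.

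Per kilobase of exon, the members fell into unequal levels, from the early gene down to the late ones. Ccnd1, the cyclin that couples growth signals to the start of the cycle, averaged 304 normalized counts per kilobase over the 26 libraries. Mcm6, a subunit of the replicative helicase, averaged 125 on the same scale, and its partner Mcm5 averaged 19.3. The late genes were lower: Top2a, the topoisomerase that untangles chromosomes, averaged 10.5 per kilobase, Ccna2, the cyclin of DNA synthesis and mitotic entry, 10.1, and Mki67, whose protein coats mitotic chromosomes and is the standard stain for dividing cells, 9.80. Cdk1, the mitotic kinase, averaged 3.96 per kilobase, its partner cyclin Ccnb1 3.28, and Birc5, which encodes survivin of the chromosomal passenger complex, 2.78. Mcm6 and Ccnd1 therefore rest on 495 to 2740 counts per library, while Ccnb1 and Birc5 rest on 0 to 41. A value of 0 was found for Ccnb1 in Y198F library 2 and S205A control 4, and for Birc5 in WT 3 and Y198F 1 and 2, where 3 counts would correspond to 2.86 to 3.05 normalized counts.

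The late members had the highest coefficients of variation, but Mcm5 and Ccnd1 also varied more than genes of like level. Over all 26 libraries the normalized counts of Mki67 ran from 8.65 to 237, a coefficient of variation of 57.7% against a median of 28.0% for genes of like level. Top2a ran from 14.4 to 289, with a coefficient of variation of 70.9% against 28.4%. For the scarce Ccnb1 (77.5% against 62.1%), Birc5 (73.5% against 65.5%) and Cdk1 (64.7% against 50.8%), much of a spread of that size is also seen in other genes at their level. Ccna2 varied by 51.6% against 40.2% and Mcm5 by 39.8% against 25.1%. Mcm6 was steady, 677 ± 94.0 normalized counts (SD, n = 26), a coefficient of variation of 13.9% against 14.5%. Ccnd1 was 1453 ± 369 (SD, n = 26) and varied by 25.4% against 13.6%.

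**Figure D2:**
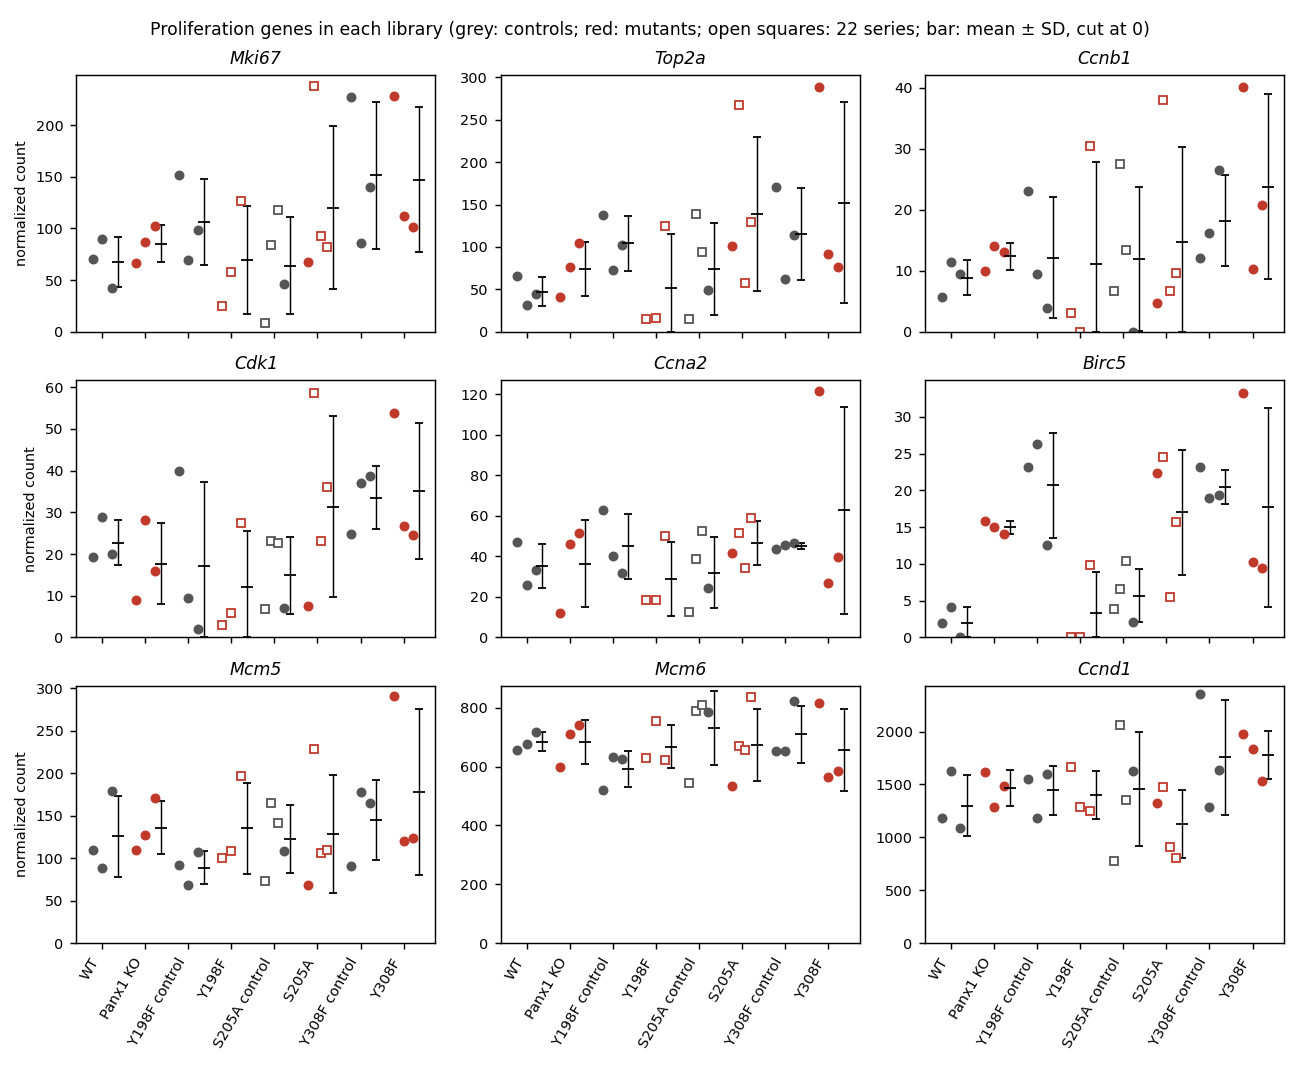
Normalized counts (vertical axis, linear from 0) of the 9 genes in each of 26 libraries, by group (horizontal axis); grey points are controls, red points mutants, open squares the 22 series, and the bars give the group mean ± SD, cut at 0. Libraries of 1 group spread widely for the late genes, Birc5 separates Panx1 KO from WT, and Mcm6 stays between 520 and 835.

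In the Panx1 KO arteries no proliferation gene passed the test against WT, and Birc5 stood furthest from its controls. All 9 members passed the filter on low counts. Of these, 0 had an adjusted p under 0.05 in edgeR's quasi-likelihood test, where 0.0309% of all 16193 genes tested did. At an unadjusted p under 0.05 there was 1 member, Birc5, against 11.2% of all genes, and DESeq2 called 0 members. Birc5 had 1.92, 4.13 and 0 normalized counts in WT libraries 1, 2 and 3 and 15.9, 15.0 and 14.1 in the Panx1 KO libraries. The 3 knockout values lay close together and above every WT value; across the genes tested, groups that did not overlap in this direction made up 9.26%. The log2 fold change was 2.86 (SE 0.84, 95% interval 0.97 to 4.74), with an unadjusted edgeR p of 0.00738, an edgeR adjusted p of 0.339 and an exact two-sided permutation p of 0.1, the smallest that 3 against 3 allows. It stayed between 2.29 and 3.82 in every alternative fit and with any single library left out, and no adjusted p among these fell below 0.202. These are at most 16 counts per library.

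The other late genes overlapped between Panx1 KO and WT. Mki67 had 70.0, 89.8 and 41.9 normalized counts in WT and 66.4, 86.5 and 102 in Panx1 KO, a log2 fold change of 0.35 (95% interval -0.39 to 1.10). Top2a had 65.2, 32.0 and 44.8 in WT and 40.6, 76.8 and 104 in Panx1 KO, a log2 fold change of 0.65 (95% interval -0.27 to 1.58). Cdk1 had a log2 fold change of -0.34 (95% interval -1.52 to 0.85), Ccnb1 of 0.49 (-0.76 to 1.75) and Ccna2 of 0.06 (-1.15 to 1.26). For Mki67, Top2a, Ccnb1 and Ccna2 the intervals still include a log2 fold change of 1. The early genes were measured more tightly. Mcm6 had a log2 fold change of 0.01 (95% interval -0.25 to 0.27), Ccnd1 of 0.19 (-0.18 to 0.55) and Mcm5 of 0.12 (-0.55 to 0.79).

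By the mean log2 CPM of the 6 late members, Y198F libraries 1 and 2 were the lowest of all 26 libraries and Y198F library 3 was among the higher ones. Against the labelled Y198F controls, 7 members passed the filter on low counts, all but Ccnb1 and Cdk1. Of the 7, 0 were called by edgeR's quasi-likelihood test at an adjusted p under 0.05, where 15.0% of the 16050 genes tested were; 1 had an unadjusted p under 0.05, against 29.1%, and DESeq2 called 0. Birc5 had 0, 0 and 9.80 normalized counts in Y198F libraries 1, 2 and 3 and 23.1, 26.3 and 12.6 in the controls, so that every mutant value lay below every control value, as for 15.6% of all genes in this direction. Its fitted log2 fold change was -2.59 (SE 1.08, 95% interval -4.96 to -0.23), with an edgeR adjusted p of 0.136 and an exact two-sided permutation p of 0.1. Top2a had 15.3, 15.7 and 124 normalized counts in the mutants and 138, 72.7 and 102 in the controls. Mutant libraries 1 and 2 were far below the controls and library 3 was among them, which gave a log2 fold change of -0.99 (95% interval -3.15 to 1.17). Mki67 had 24.4, 57.9 and 126 in the mutants against 151, 69.5 and 98.1 in the controls, a log2 fold change of -0.60 (95% interval -1.86 to 0.67). Here only mutant library 1 was far below the controls, library 2 lay just under the lowest of them, and library 3 was among them.

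A single Y198F library decided the calls. Without Y198F library 3, edgeR called 2 members lower, where 4.55% of the genes tested were called lower: Top2a, with a log2 fold change of -2.73 and an adjusted p of 0.00404, and Birc5, with an adjusted p of 0.0150. Birc5 then had 0 counts in both remaining mutants, so it was at least 6.78-fold lower than the control mean of 20.7, taking 3 counts per library as the floor. Both remaining mutants are the libraries at the bottom of the late-gene order of all 26. In a fit of all groups with the library series as a term, 0 members and 0 genes in all were called; Top2a then had a log2 fold change of -1.64, Birc5 of -2.80 and Mki67 of -1.41. Set against the 3 S205A controls of the same series instead, Top2a had a log2 fold change of -0.66 and Mki67 of 0.00, again with 0 genes called. Birc5 did not pass the filter in that fit, and from the normalized counts its log2 ratio to all 4 S205A controls was -0.80. Y198F library 3, at 9.80, lay above S205A controls 1 and 2 of that series, at 3.85 and 6.60, and just below control 3, at 10.3, so that the groups overlapped. Marker lists of cell types had median log2 fold changes in this pair that differed with the controls used. Against the labelled controls 15.0% of all genes were called and 29.1% had an unadjusted p under 0.05. There the 8 fibroblast markers had a median log2 fold change of -0.76, with 6 at an unadjusted p under 0.05 and 0 called. Their summed levels were 37328 to 56885 against 58518 to 76545. The fibroblast median was -0.02 with the series term and 0.88 against the matched S205A controls. The 8 Schwann cell markers had a median of -0.66, with 3 called lower and sums of 3970 to 4436 against 4968 to 7151, and their median was -0.34 with the series term and 0.72 against the matched controls. The 8 endothelial markers had a median of 0.15, with 2 called higher and sums of 91989 to 100066 against 71237 to 90427, and their median was 0.30 with the series term and 0.02 against the matched controls. The 8 smooth muscle markers had a median of 0.37, with 2 called higher, 1 called lower and 5 at an unadjusted p under 0.05. Their median was -0.05 with the series term and -0.20 against the matched controls. The 8 macrophage markers had a median of -0.60, with 0 called. Their median was -0.50 with the series term and 0.54 against the matched controls, where 7 were tested. No library had a fibroblast, Schwann cell or endothelial marker at 0. The part of these lists in the late-gene values was not tested. Y198F library 3 also stood apart from Y198F libraries 1 and 2 on 3 other marker lists. The summed level of the 8 mesothelium markers was 1048 normalized counts in library 3, the highest of all 26 libraries, against 145 and 135 in libraries 1 and 2, where 5 and 6 of these markers were at 0. The 8 adipocyte markers summed to 42681, against 4117 and 10620, and the 5 erythroid markers to 7082, against 1226 and 840. With the series term the median log2 fold change was 7.54 for the mesothelium markers, of which 5 had an unadjusted edgeR p under 0.05. The size of this value is no bound, since most of these markers were at 0 in Y198F libraries 1 and 2. The median was 2.07 for the adipocyte markers and 0.86 for the erythroid markers. Against the labelled controls the 3 medians were 1.31 (2 mesothelium markers tested), 1.25 and 1.55. Against the matched controls they were -0.05 (1 mesothelium marker tested), 1.60 and 1.499. In each of these fits 0 markers of the 3 lists were called. The part of these cells in the values of Y198F library 3 was not tested.

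The early genes of the Y198F pair overlapped between mutants and controls. Mcm5 had 99.7, 109 and 197 normalized counts in the mutants and 91.4, 68.5 and 107 in the controls, a log2 fold change of 0.61 (95% interval -0.06 to 1.29, edgeR adjusted p 0.218). In the fit with the series term it was -0.02. Mcm6 had a log2 fold change of 0.18 (95% interval -0.10 to 0.46) and Ccnd1 of -0.04 (-0.35 to 0.27). The values of Ccnb1 (-0.12) and Cdk1 (-0.49) come from the fit without the filter, with intervals that span more than 3 log2 units each.

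In S205A arteries the 6 late genes had higher means than in S205A controls, and none passed a test. Of the 7 members that passed the filter, all but Ccnb1 and Birc5, 0 were called by edgeR's quasi-likelihood test at an adjusted p under 0.05, as for 0% of the 15709 genes tested, and 0 had an unadjusted p under 0.05, against 2.87%. DESeq2 called 0 members and gave 1 an unadjusted p under 0.05. The groups overlapped for each of the 9 members, and 1.77% of all genes had groups that did not overlap. Mki67 had 67.9, 237, 92.9 and 82.0 normalized counts in S205A libraries 1 to 4 and 8.65, 83.6, 118 and 45.7 in the controls. Library 2 of the mutants was the highest of all 26 and control 1 the lowest, and the remaining values overlapped. The log2 fold change was 0.91 (95% interval -0.62 to 2.44), as for Top2a (0.91, -0.56 to 2.39), while Cdk1 had 1.07 (-0.49 to 2.63) and Ccna2 0.54 (-0.50 to 1.59). S205A library 2 weighed on Mki67 and Top2a: without it Mki67 was 0.35 and Top2a 0.38, and with control 1 left out instead they were 0.54 and 0.57. With S205A control 3 left out Mki67 was 1.39, and with control 2 left out Top2a was 1.40. Birc5 had 22.3, 24.5, 5.53 and 15.7 in S205A and 3.85, 6.60, 10.3 and 2.03 in the controls. Mutant library 3 lay inside the control range. The means of 17.0 ± 8.51 and 5.70 ± 3.61 (SD, n = 4 each) were further apart than either SD, and the log2 fold change in the fit without the filter was 1.56 (SE 0.90, 95% interval -0.28 to 3.40, edgeR adjusted p 0.898). It ran from 1.28 to 2.01 over 7 fits with a library left out. A two-sided exact permutation test gave p = 0.0857, where 4 against 4 allows 0.0286. The study's text gives 3 vascular trees per genotype while 4 libraries per S205A group were used, so some of these may share a source.

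In the same S205A pair 8 of 8 fibroblast markers had a higher fitted level, with a median log2 fold change of 1.37 and 0 called. Of these, 6 had an unadjusted p under 0.05, against 2.87% of all genes. Their summed levels were 40131 to 115571 in S205A against 28280 to 38757 in the controls. Schwann cell markers were also higher in 8 of 8, with a median of 0.89, 6 at an unadjusted p under 0.05 and 0 called, and sums of 3646 to 6145 against 2229 to 3615. No library had a fibroblast or Schwann cell marker at 0, and their part in the late-gene levels was not tested. Ccnd1 went the other way on average, with 1321, 1475, 904 and 808 normalized counts in S205A and 779, 2058, 1352 and 1631 in the controls, a log2 fold change of -0.36 (95% interval -1.03 to 0.30). Mcm6 had a log2 fold change of -0.12 (95% interval -0.50 to 0.27) and Mcm5 of 0.07 (-0.79 to 0.94).

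The Y308F pair overlapped between mutants and controls for every member, where 10.7% of all genes had groups that did not. The mean log2 CPM of the 6 late members was 1.38 in the mutants and 1.35 in the controls, the highest group means of the series. In the mutants this mean rested on library 1, at 2.33 against 0.83 and 0.97 in the others, and by the median the mutants (0.97) lay below Panx1 KO (0.99). All 9 members passed the filter; 0 were called by edgeR's quasi-likelihood test at an adjusted p under 0.05, as for 0% of the 16037 genes tested, 0 had an unadjusted p under 0.05, against 4.40%, and DESeq2 called 0. Mki67 had 228, 112 and 101 normalized counts in Y308F and 228, 86.3 and 140 in the controls, a log2 fold change of -0.04 (95% interval -1.02 to 0.94). Top2a had 289, 91.5 and 75.8 in Y308F and 171, 61.7 and 114 in the controls, a log2 fold change of 0.39 (95% interval -0.98 to 1.76). Y308F library 1 was the highest of its group for all 9 members. Without it the log2 fold change of Top2a was -0.47 and that of Ccna2 -0.45, against 0.46 with it. Birc5 had a log2 fold change of -0.22 (95% interval -1.53 to 1.09), Mcm6 of -0.11 (-0.50 to 0.27) and Ccnd1 of 0.02 (-0.48 to 0.51).

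**Figure D3:**
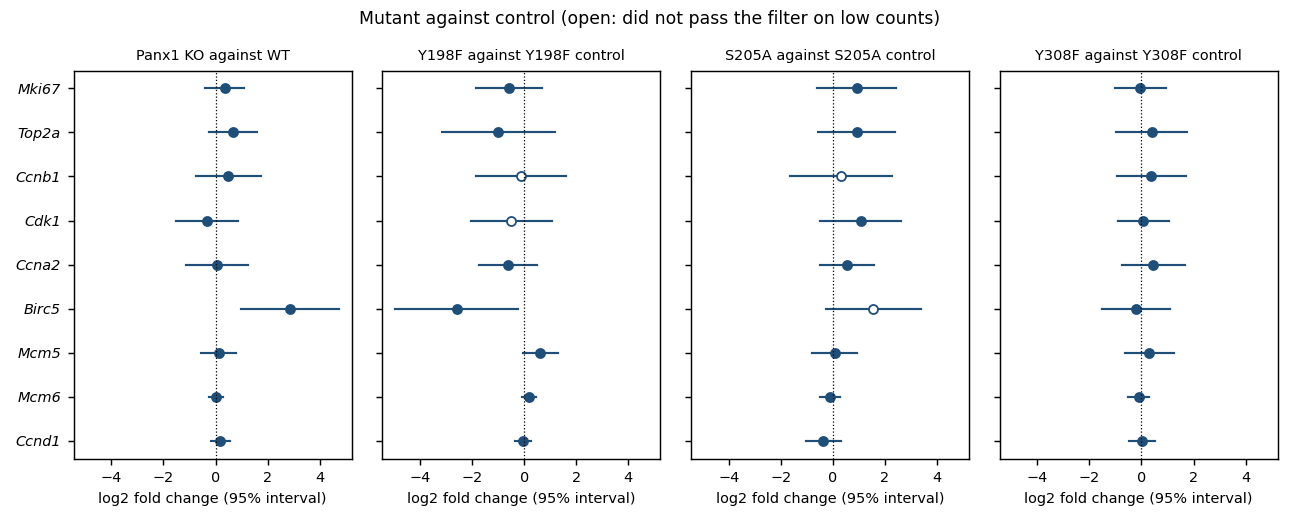
Log2 fold changes (horizontal axis, points) with 95% intervals (lines) of the 9 genes, mutant against control, in 4 panels, 1 per comparison; open points are genes that did not pass the filter on low counts. The intervals of Mcm6 and Ccnd1 are the narrowest, those of the late genes are wider, and that of Birc5 excludes 0 in the Panx1 KO and Y198F panels.

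The differences between lines were tested directly. Over all 8 groups, 0 of 9 members passed edgeR's test for any difference at an adjusted p under 0.05, where 7.10% of 18715 genes did, and 1 had an unadjusted p under 0.05, against 22.3%. This was Birc5, with an unadjusted p of 0.0172 and an edgeR adjusted p of 0.123, and the adjusted p of the other members ran from 0.545 to 0.959. Without Y198F library 3 this test called 1 member and 4.57% of all genes. Each of the 6 pairs of mutant effects was then compared, and 0 members passed at an adjusted p under 0.05 in any of them. At an unadjusted p under 0.05, Birc5 alone passed in the contrasts of Panx1 KO with Y198F, of Panx1 KO with Y308F and of Y198F with S205A, where 19.7%, 2.08% and 18.0% of all genes did. No member passed in the contrasts of Panx1 KO with S205A, of Y198F with Y308F and of S205A with Y308F, where 5.62%, 17.6% and 4.72% did. The Birc5 effect of Panx1 KO minus that of Y198F was 5.42 log2 units (SE 1.43) with an edgeR adjusted p of 0.0598, in a contrast that called 0.577% of all genes. It passed the threshold when Y198F library 3 (adjusted p 0.0226), S205A control 4 (0.0280) or S205A library 1 (0.0418) was left out, in edgeR fits that called 0.0257%, 5.22% and 3.34% of all genes in this contrast. The fitted difference ran from 4.88 to 10.24 over the libraries left out, the top value without Y198F library 3, where the mutants hold 0 counts and the fitted size is no bound. The Birc5 effect of Y198F minus that of S205A was -4.15 (SE 1.28, edgeR adjusted p 0.103; without Y198F library 3, a fitted -8.96 and 0.0400), where 0.0160% of all genes were called, and 0.0462% without that library. The Birc5 effect of Panx1 KO minus that of Y308F was 3.06 (SE 1.35, edgeR adjusted p 1.00), where 0.0107% of all genes were called. The contrast of Panx1 KO with S205A also called 0.0107%, and the contrasts of Y308F with Y198F and with S205A called 0%. For the remaining members the intervals of these contrasts include 0. The library series itself, fitted beside the 8 groups, called 0 members and 11.7% of all genes in edgeR; 1 member, Ccnb1, had an unadjusted p under 0.05, against 25.0%, with a log2 difference of 2.92 (SE 1.27, edgeR adjusted p 0.148) toward the 22 series. Only the S205A arms mix the library series. The difference was 1.92 without S205A control 4, and a fitted 7.01 without S205A library 1, where it rests on S205A control 4 alone, which holds 0 Ccnb1 counts, so that its size is no bound.

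Birc5 levels were spread over the control groups as well as the mutants; this order is a description, since the test over all groups did not call the gene. From the lowest, its mean was 2.02 normalized counts in WT, 3.27 in Y198F, 5.70 in S205A controls, 15.0 in Panx1 KO, 17.0 in S205A, 17.7 in Y308F, 20.5 in Y308F controls and 20.7 in Y198F controls. In that order only S205A controls and Panx1 KO were neighbours whose libraries did not overlap. Of the 28 pairs of groups 12 did not overlap, a number reached or passed by 2.95% of the 18715 genes tested, whose median was 4. WT lay below both the Y198F and the Y308F controls. The Panx1 KO values were above all S205A controls and below all Y308F controls, which had 23.2, 19.0 and 19.3. Among the other 8 members, 0 to 2 of 28 pairs of groups did not overlap, and no neighbours in the order of means were apart.

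The late members rose and fell together between libraries of the same group. After each group's mean log2 CPM was subtracted, the 15 pairs among Mki67, Top2a, Ccnb1, Cdk1, Ccna2 and Birc5 had Pearson correlations of 0.50 to 0.84 over 26 libraries, with a median of 0.65. The median was 0.86 within the 22 series and 0.47 within the other 17 libraries. The genes of a library share its depth and cell makeup, so these values are a description. Over all 26 libraries, the median correlation with the 6 late genes was 0.59 for Mcm5, 0.34 for Mcm6 and 0.17 for Ccnd1. Within the 22 series these medians were 0.85, 0.36 and 0.41, and within the other 17 libraries 0.36, 0.28 and 0.08, so that the order of Mcm6 and Ccnd1 differed between the library series. The mean log2 CPM of the 6 late members was highest in Y308F library 1 (2.33), S205A library 2 (2.06) and Y198F control 1 (1.62). It was lowest in Y198F libraries 1 (-1.09) and 2 (-0.99) and S205A control 1 (-0.87). Y198F library 3 ranked 6 of 26, so this group held libraries near both ends of the order.

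**Figure D4:**
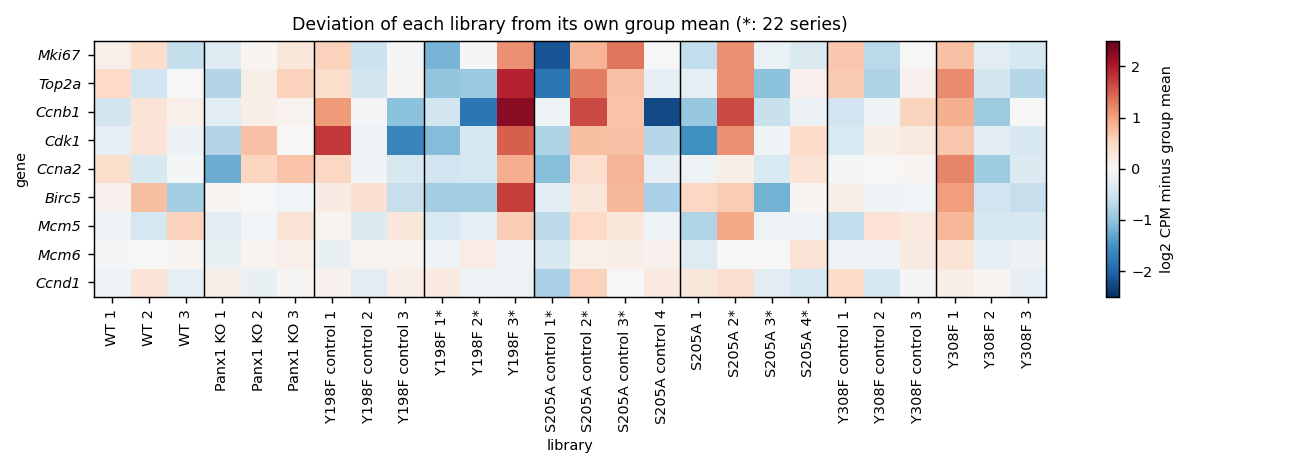
Log2 CPM of the 9 genes (rows) in 26 libraries (columns, asterisks mark the 22 series) after subtracting each group's mean; red is above and blue below the group mean, on 1 shared scale. Late genes share a colour within a library, red in Y198F 3, S205A 2 and Y308F 1 and blue in Y198F 1 and S205A control 1. In S205A control 1, Ccnd1 (-0.80) is also blue, and Ccnb1 (-0.11) and Birc5 (-0.27) are paler than it.

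The genes outside the examined lists that most resembled the late mean, among 18564 genes, were Nuf2 (r = 0.87), a kinetochore component, Fam64a (0.85), a regulator of mitotic progression, D17H6S56E-5 (0.84), Gzma (0.84), a granule protease of cytotoxic lymphocytes, and Ckap2 (0.83), a spindle protein. Without Y198F 3 and S205A control 1, whose late means lay farthest from their own group's mean, these correlations were 0.76 to 0.86. Nuf2, Gzma and Ckap2 reached 0 counts in at least 1 library, and Gzma had a median of 4.40 normalized counts. Of 24 tested genes of mitosis and cytokinesis, 18 had a correlation over 0.5 with the late mean, against 1.73% of the genes outside the lists. The 8 lymphocyte markers had correlations of -0.09 to 0.28 with it, the 8 smooth muscle markers -0.26 to 0.17 and the 8 endothelial markers -0.02 to 0.48.

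Ccnd1 followed a different set of genes. Its closest companions over the same group-centred values were St8sia6 (r = 0.92), Epas1 (0.92), which encodes a hypoxia-inducible transcription factor abundant in endothelium, Exoc6 (0.91), Pam (0.90) and Ctnnb1 (0.90), which encodes beta-catenin. Without S205A controls 1 and 2, whose Ccnd1 values lay farthest from their own group's mean, these were 0.83 to 0.87. Of the 8 endothelial markers, 6 had a correlation over 0.5 with Ccnd1 and the median was 0.77, against 9.58% of genes outside the lists, while the 8 smooth muscle markers had a median of -0.47. The summed endothelial markers were lowest in S205A control 1 (22071), which also had the lowest Ccnd1 (779) and the highest summed smooth muscle markers (816427). They were highest in S205A control 2 (185841) and Y308F control 1 (182487), where Ccnd1 was 2058 and 2352. The part of endothelial content in the Ccnd1 levels was not tested.

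**Figure D5:**
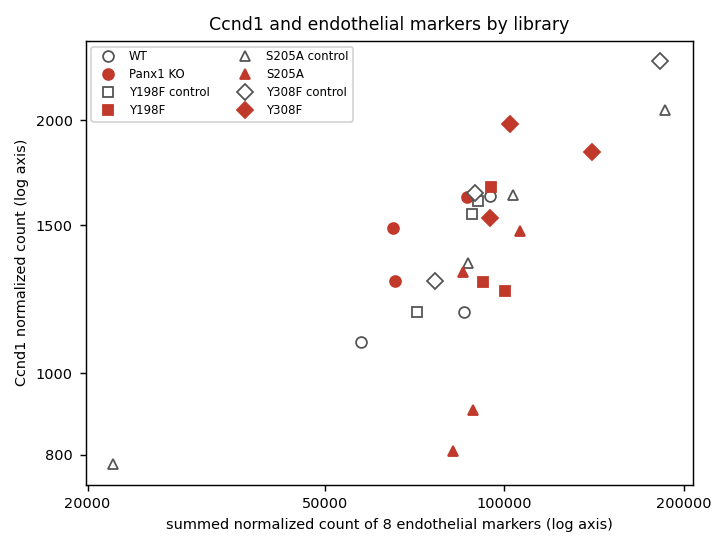
Normalized count of Ccnd1 (vertical log axis) against the summed normalized count of 8 endothelial markers (horizontal log axis), 1 point per library, open for controls and filled for mutants. S205A control 1 lies alone at the lower left, S205A control 2 and Y308F control 1 at the upper right, and S205A libraries 3 and 4 lie below the other libraries of like endothelial sum.

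The wider cell cycle was read from 4 further gene lists. In Panx1 KO, S205A and Y308F, 0 genes of these lists were called by edgeR's quasi-likelihood test, of 67, 67 and 69 tested. Of all genes tested, 0.0309%, 0% and 0% were called. At an unadjusted p under 0.05 there were 2, 1 and 0 list genes, against 11.2%, 2.87% and 4.40% of all genes. DESeq2 called 0 list genes, where it called 107 of 29582, 40 of 28998 and 0 of 29461 genes. The 25 genes of mitosis and cytokinesis had median log2 fold changes of 0.24, 0.55 and 0.09 in those 3 comparisons (20, 22 and 23 tested, 0 at an unadjusted p under 0.05 in each), against medians of 0.01, -0.01 and -0.03 for all genes. The 23 genes of replication licensing and DNA synthesis had medians of 0.17, 0.14 and 0.02, and the 13 G1 cyclins, kinases and E2F-RB genes of 0.00, 0.00 and -0.05. The 12 cell cycle inhibitors had medians of -0.23, 0.08 and -0.04.

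In Y198F, 5 of the 67 list genes tested were called by edgeR against the labelled controls, where 15.0% of all genes were, and 15 had an unadjusted p under 0.05, against 29.1%. DESeq2 called 7 of 73 list genes, where it called 2613 of all 28748 genes. Pola1, the catalytic subunit of the polymerase that primes replication, fell with a log2 fold change of -0.82 (edgeR adjusted p 0.0201) and Mcm2, a helicase subunit, rose by 0.70 (0.0381). E2f4, which acts mainly in repressor complexes, rose by 0.55 (edgeR adjusted p 0.00838), Ccnd3 rose by 0.44 (0.0242) and Cdkn1b, an inhibitor of cyclin-dependent kinases, fell with a value of -0.58 (0.00504). In the fit with the series term, or against the S205A controls of the same series, each had an edgeR adjusted p of 1.00. Their log2 fold changes were then -0.45 and -0.29 for Pola1, 0.13 and 0.37 for Mcm2, and 0.12 and 0.19 for E2f4, in the same direction but smaller. Those of Ccnd3 were -0.08 and -0.24 and those of Cdkn1b were 0.08 and 0.11, in the opposite direction. Of 22 tested mitosis genes 0 were called in Y198F, and their median was -0.16 against 0.00 for all genes. With the series term that median was -0.82 over 24 tested, and against the S205A controls of the same series -0.14 over 21, with 0 called in either fit. The 2 genes of each list with the highest level per kilobase were: Ccnd2 (698 normalized counts per kilobase) and Cdk4 (258) among the G1 genes, Btg1 (675) and Cdkn1b (429) among the inhibitors, Pcna (267) and Orc6 (86.8) in the synthesis list, and Cdc20 (38.1) and Tpx2 (15.9) in the mitosis list. Ccnd2, a cyclin of the switch from rest to cycling, and the growth inhibitors Btg1 and Cdkn1b stood above the mitotic genes Cdc20 and Tpx2.

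The authors' deposited tables of their own comparisons called 0 members as well, where at an adjusted p under 0.05 they call 0.134% of the 14914 genes listed for Panx1 KO, 0.0158% of 18991 for Y198F, 0.495% of 19399 for S205A and 0% of 21030 for Y308F. They list 7 members for Panx1 KO, without Ccnb1 and Birc5, and all 9 for the other mutants. The smallest adjusted p among the members in the authors' deposited table was 0.916 for Panx1 KO, 0.912 for Y198F, 0.660 for S205A and 1 for Y308F. In the authors' deposited table for Y198F, Birc5 has a log2 fold change of -0.79 and Mki67 of 0.12; which controls that table used is not given in the sources used here. From the normalized counts, the log2 ratio of Y198F to the labelled Y198F controls was -2.66 for Birc5 and -0.61 for Mki67, and that of Y198F to the S205A controls was -0.80 and 0.12. For each of the 9 members the value in the authors' deposited table lies nearer to the ratio to the S205A controls. Top2a has -0.51 there, against ratios of -1.01 to the labelled controls and -0.51 to the S205A controls. Mcm5 has 0.15, against 0.61 and 0.15. For Y198F the 0 members called in that table may thus rest on controls other than the labelled ones tested here.

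By annotation of GRCm39 (GENCODE vM39) the late genes lie on chromosome 7 from 135291513 to 135318299 (Mki67), chromosome 11 from 98883769 to 98915062 (Top2a), chromosome 13 from 100915153 to 100923116 (Ccnb1), chromosome 10 from 69170976 to 69236595 (Cdk1), chromosome 3 from 36619014 to 36626299 (Ccna2) and chromosome 11 from 117740040 to 117746581 (Birc5). Mcm5 lies on chromosome 8 from 75836140 to 75856231, Mcm6 on chromosome 1 from 128259311 to 128287516 and Ccnd1 on chromosome 7 from 144483668 to 144493662. All are protein-coding and were counted per gene. Strand use in counting was not given in the sources used here, and 5 members overlap an annotated gene: Cdk1 overlaps Ank3 on the opposite strand and a processed pseudogene on its own, Ccna2 overlaps Exosc9, Ccnd1 overlaps LTO1, Mki67 overlaps Gm45240, and Top2a overlaps small nucleolar RNA genes. Their counts are uncertain to that extent.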

How the data were processed

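RNA was sequenced from 26 mesenteric artery libraries in 8 groups, taken from the labels. Per the labels' protocols, read pairs were mapped to GRCm39 with STAR 2.7.9a and counted with featureCounts, and the authors used DESeq2 1.46.0. The authors deposited whole-number counts for 57010 identifiers and a normalized signal for 21031 genes, which is the counts divided by 1 factor per library. The authors' deposited comparison tables hold log2 fold changes, p-values and a test score. Here the counts were tested with edgeR 4.0.16 in R 4.3.3 (quasi-likelihood F test, TMM, filterByExpr, robust, Benjamini-Hochberg over all genes tested, adjusted p under 0.05), within each pair, and over all 8 groups for the differences between effects. The script was tested on simulated data. Across the pairs it called 33% to 56% of 2-fold changes and 76% to 84% of 4-fold changes. False calls numbered 7 to 22 per pair, among 122 to 160 calls. Printed levels are the deposited normalized counts, with a prior count of 2 for log2 CPM. Alternatives were DESeq2 1.42.0, its size factors in edgeR, no filter, 1 fit of all groups, the replicate block, the library series as a term or matched controls, and each library left out. For genes that did not pass the filter, the unfiltered fit was used. The genes named are the 9 members, up to 3 called genes and the 2 most abundant per kilobase of each other list, and the 5 genes most like the late mean or Ccnd1. The members and all lists were chosen with earlier results of these data known.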

Additional observations from a re-analysis of the deposited data

Results flagged for a closer look

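In 18 groups of 4 libraries, 1 per gene and S205A arm, the gap between the most extreme library and its neighbour was compared with the whole range of the group. A ratio above Dixon's 95% critical value marks a library as far from the rest, which chance gives in about 1 in 20 groups. S205A library 2 was far above the other S205A libraries for Mki67, at 237 normalized counts (ratio 0.852), and for Ccnb1, at 37.9 (ratio 0.850). S205A control 1 was far below the other S205A controls for Mcm6, at 545 normalized counts (ratio 0.910).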

How the results depend on the processing

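Across the alternatives other than leaving out a library, 0 members were called in any comparison. The number of genes called in all moved more. For Panx1 KO it was 107 with DESeq2, 243 without the filter and 18 with the replicate block, against 5. For Y198F it was 922 in 1 fit of all groups, 0 with the series as a term and 0 against matched controls, against 2411. It was 40 with DESeq2 for S205A and 7 without the filter for Y308F, each against 0. The cause of these shifts was not tested. Replicate numbers did not pair the samples: same-numbered libraries had correlations of -0.08 to 0.23, -0.02 to 0.10, -0.28 to 0.13 and -0.14 to 0.03 in the 4 pairs, and the block changed no call of a member.

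In these alternatives the sign turned for 9 log2 fold changes, none of them called. With the replicate block, Ccna2 in Panx1 KO was -0.066 and Cdk1 in Y308F -0.0008. In 1 fit of all groups Mcm6 in Panx1 KO was -0.0129. With the series as a term Mcm5 in Y198F was -0.0154 and Ccnd1 0.23; against matched controls Mki67 was 0.0021, Mcm6 -0.0927 and Ccnd1 0.0055. Within the 22 series Mcm6 in S205A was 0.0167.

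With 1 library left out, genes called were 1 to 5 for Panx1 KO, 908 to 2128 for Y198F, 0 to 1 for S205A and 0 to 1 for Y308F. Members called were 0 to 2 for Y198F, and 0 to 1 for any difference, for Panx1 KO minus Y198F and for Y198F minus S205A. Log2 fold changes that turned sign ran, for Panx1 KO, from -0.28 to 0.46 (Ccna2), -0.0803 to 0.47 (Mcm5) and -0.0611 to 0.0803 (Mcm6). For Y198F they ran from -0.53 to 0.47 (Ccnb1) and -0.18 to 0.0392 (Ccnd1), and for S205A from -0.12 to 0.60 (Ccnb1) and -0.36 to 0.28 (Mcm5). For Y308F all 9 turned: Mki67 -0.51 to 0.38, Top2a -0.47 to 0.79, Ccnb1 -0.23 to 0.77, Cdk1 -0.38 to 0.27, Ccna2 -0.45 to 0.84, Birc5 -1.05 to 0.0832, Mcm5 -0.25 to 0.54, Mcm6 -0.31 to 0.0113 and Ccnd1 -0.16 to 0.29.

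Ccnb1 and Birc5 rest on 0 to 41 counts per library, so small differences in them were not detectable at this depth; intervals and floors cover counting error and the spread between libraries only.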
